A study of Mus musculus with 2 samples.

Results

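LKB1 and AMP-activated protein kinase (AMPK) form a kinase relay that senses cellular energy. The 9 genes described here encode the LKB1 kinase (Stk11), its partners Strada and Cab39, and the AMPK subunits Prkaa1, Prkaa2, Prkab1, Prkab2, Prkag1 and Prkag2. They were taken by symbol from the 38396 gene rows of the table, and each symbol matched 1 row. The family was chosen from the FPKM of Stk11 in these same libraries, where it stood out, so its levels and ratio are given as a description.

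RNA was pulled down with an antibody against the RNA-binding protein HuR, encoded by Elavl1, and sequenced. The tissue was epididymal fat of mice aged 6 weeks. One library came from control mice (HuRf/f, floxed HuR alleles without Cre) and 1 from HuR-FKO mice (AdipoQ-Cre; HuRf/f), so both carry the floxed alleles. The adiponectin promoter drives Cre in adipocytes, and the other cells of the fat pad keep HuR. Each genotype has a single library, so every difference compares those 2 libraries and not the genotypes, and none was tested. Neither input nor IgG RNA was analysed here. Binding by HuR, abundance of an mRNA and RNA carried down without HuR therefore cannot be told apart. Nor can fewer cells of a type and less RNA per cell.

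LKB1 is active as a complex with STRADα, a pseudokinase encoded by Strada, and MO25α, a scaffold protein encoded by Cab39. It phosphorylates the activation loop of AMPK, whose catalytic α subunit is held by a β subunit to a γ subunit that binds AMP, ADP and ATP. When energy is low, AMPK restrains fatty acid and sterol synthesis, and in adipocytes it also acts on the lipases that release stored fat.

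Depth and labels were examined first. Values were in FPKM, the fragments assigned to a gene divided by its transcript length in kilobases and by the mapped fragments of that library. For genes with 1 annotated transcript, the low values fell on steps. The most frequent step, taken as 1 fragment, gave totals of about 11050000 fragments for the library labelled control and 18580000 for the one labelled HuR-FKO. In each, 21 genes also lay at 0.5 of this step; were that the true fragment, the totals would be larger and the counting intervals narrower. The deleted gene, Elavl1, had 16.6 FPKM under the control label and 26.1 FPKM under the HuR-FKO label on this scale. Against the median gene Elavl1 lay toward control, by 1.57 on the log2 scale. Both values are levels in the pull-down and not in the tissue, so they cannot show whether the labels are right. Control and HuR-FKO hereafter name the libraries as labelled, and every direction rests on those labels. Of the marker lists, all 6 adipocyte genes were above 0 in each library, with summed levels of 8211 FPKM in control and 27230 FPKM in HuR-FKO. Sums in the same order were 141 and 531 FPKM for preadipocyte and fibroblast markers (4 genes), 9.09 and 29.8 for macrophage markers (3, with Cd68 at 0 in both), 11.9 and 19.4 for endothelial markers (4), and 790 and 1757 for erythroid markers (4). Over the genes that reached 5 FPKM, the log2 of control over HuR-FKO had a median of -2.22 over all genes. By list it was -0.82 (endothelial, 1 gene), -1.02 (erythroid, 4 genes), -1.74 (macrophage, 1 gene), -1.99 (adipocyte, 6 genes) and -2.13 (preadipocyte and fibroblast, 2 genes). The erythroid list was split: Alas2 was 4.24-fold higher in control, and the globin genes were 1.9-fold to 2.58-fold higher in HuR-FKO. The part of these cell types in the members' values was not tested. The epididymal epithelium markers were at 0 in both libraries (4 of 4), and 2 of 3 skeletal muscle markers were too, with Myh4 at 0.0712 FPKM in control.

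**Figure D1:**
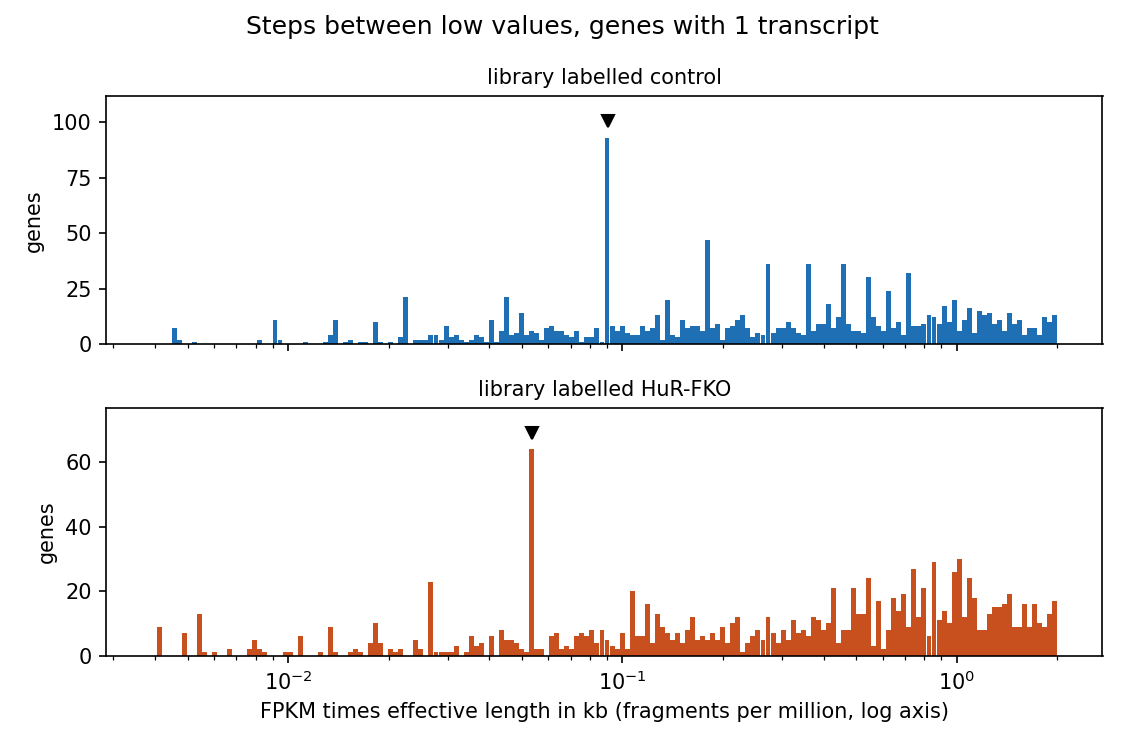
Number of genes with 1 annotated transcript (y axis) by FPKM times effective transcript length in kilobases (x axis, log), for the library labelled control (upper) and the library labelled HuR-FKO (lower). The triangles mark the most frequent step, 0.0905 and 0.0538 in that unit, with 87 and 57 genes within 0.5% of it.

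HuR binds AU-rich and U-rich stretches, mostly in 3′ UTRs, so the longest annotated 3′ UTR of each gene was searched for 3 motifs, with T standing for U and overlapping matches counted on the transcript strand. The first was the AU-rich pentamer ATTTA. The second, a related heptamer, was TTTATTT. The third was a U tract, TTTTTTT. Among 20028 protein-coding genes, 66.6%, 38.9% and 39.8% held these motifs. The following windows of 30 bases (GENCODE transcripts, mm10) are those with the most bases inside a motif, or with the most T where no motif occurs, a rule set after the sequences were seen. They set Stk11 beside members whose whole 3′ UTR holds more matches of the pentamer, the same number of it (Prkag2) or none. A window need not itself contain the pentamer, and those of Stk11 and Cab39 do not. Strada and Prkab2, which also hold more than Stk11, are not shown. Capitals mark motif bases.
Stk11, chr10:80130432-80130461, plus strand: ggttggtttcTTTTTTTTTaataaaacagg
Prkaa1, chr15:5181251-5181280, plus strand: cTTTTTTTTattatcttttcagcaATTTAt
Prkaa2, chr4:105034954-105034983, minus strand: gtgcaagTTTTTTTTTTaATTTAagacaaa
Cab39, chr1:85851416-85851445, plus strand: taatgtgaTTTTTTTTTTTTTaacccttaa
Prkag2, chr5:24863242-24863271, minus strand: caacagcgcTTTATTTATTTttactctcat
Prkag1, chr15:98812973-98813002, minus strand, with no match: atatttttattcgtcttgtttcactgtgtg

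The 3′ UTR of Stk11 was short and poor in A and T, with 440 bases and 45.9% A+T against a median of 996 bases and 56.5% over all genes. It held 1 ATTTA and a single tract of 9 T, which counts as 3 overlapping U tract matches. At least 1 such match was present in 17.5% of the 2039 genes with a 3′ UTR of similar length. Prkaa1 held 16 ATTTA in 2967 bases, where genes of similar 3′ UTR length had a median of 5. Prkaa2 held 23 ATTTA in 6218 bases, against a median of 11. Strada, Cab39, Prkab2 and Prkag2 held 7, 6, 5 and 1 of this pentamer in 3037, 2355, 4007 and 1112 bases, against medians of 5, 4, 7 and 2. U tract matches numbered 15 in Prkaa2, 8 in Cab39, 6 in Prkab2, 3 in Prkag2, 3 in Prkaa1 and 2 in Strada, against medians of 8, 2, 4, 0, 3 and 3. The heptamer with A was found 4 times in Prkab2, 3 times in Prkaa1, 2 times each in Prkaa2 and Prkag2, 1 time in Strada and not in Cab39 or Stk11, against medians of 2, 1, 3, 0, 1, 1 and 0. None of the 3 motifs occurred in the 576 bases of Prkag1 or the 1063 bases of Prkab1. A match describes the letters only and is not a measured site.

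Stk11 had by far the highest level of the 9 genes in HuR-FKO and a middling one in control. Stk11 (ENSMUSG00000003068, chromosome 10, 80115803 to 80130682, plus strand, mm10) was at 1.12 FPKM in control and at 63.8 FPKM in HuR-FKO, 56.7-fold higher in the latter. With all fragments assigned to its longest coding transcript of 2566 bases, these levels correspond to about 29.4 and 2793 fragments. The exact 95% binomial interval of the fold was then 39.9 to 86.0, and 35.2 to 100 with the mean length of its coding transcripts. Such intervals cover counting error only, and without molecular identifiers fragments are not independent molecules. In HuR-FKO the level of Stk11 exceeded that of 96.1% of protein-coding genes, and in control that of 74.4%.

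On the deposited scale most genes had the higher value in HuR-FKO. Among protein-coding genes, 5571 reached 5 FPKM in at least 1 library, and the median of their log2 ratios (control over HuR-FKO) was -2.22. Other scalings of the libraries add 1.77 to 2.09 to every log2 ratio, and Cab39, Prkaa1 and Prkag2 then turn toward control under all 3, Prkag1 under 2 of them, and Stk11, Strada and Prkab2 under none. Relative to the median Stk11 lay 12.2-fold toward HuR-FKO, and 5.31% of these genes had a lower ratio. At the 3′ end, 232 bases of Stk11 overlap Cbarp on the opposite strand, and 6.56% of its 50-base words occur in Cbarp transcripts. Cbarp itself was at 0.297 FPKM in control and at 2.39 FPKM in HuR-FKO. The methods describe strand-specific libraries for the tissue RNA-seq; for the immunoprecipitated RNA, and for the counting, strand use is not stated, so reads of the shared end may belong to either gene.

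The partners of LKB1 did not share this level. Cab39 (ENSMUSG00000036707, chromosome 1, 85793441 to 85851576, plus strand) was at 3.41 FPKM in control, the highest of the 9 genes there, and at 8.14 FPKM in HuR-FKO. Its fold of 2.39 (exact 95% binomial interval 1.97 to 2.90) was below the interval of Stk11, and relative to the median of all genes it lay 1.95-fold toward control. Strada (ENSMUSG00000069631, chromosome 11, 106163330 to 106202168, minus strand) was at 0.0168 FPKM in control, which corresponds to under 1 fragment (0.593), and at 0.956 FPKM in HuR-FKO (56.4 fragments). The ratio of the 2 deposited values, 56.8, is close to that of Stk11 but rests on this fraction of a fragment, with an interval of 5.75 to 1342 when it is rounded to 1 fragment. With the mean length of its coding transcripts the control value is 0.321 fragments. The interval then starts at 4.73 and has no upper bound. The annotated spans of Strada and Ccdc47, introns included, overlap on the same strand over 4761 bases, and Ccdc47 was at 19.8 and 96.5 FPKM. Of the 50-base words of Strada transcripts, 1.73% occur in the snRNA gene Gm25556, listed at 0 in both libraries, and 2.23% in any other gene. Ccdc47 was not among the genes that shared the most of them.

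Levels within a library do not depend on how the libraries are scaled to each other. Stk11 stood at 0.33 times the level of Cab39 in control and at 7.83 times in HuR-FKO. Of the summed FPKM of the 9 genes, 11.4 in control and 94.7 in HuR-FKO, Stk11 made up 9.87% and 67.3%. The other 8 genes summed to 10.3 and 30.9 FPKM.

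**Figure D2:**
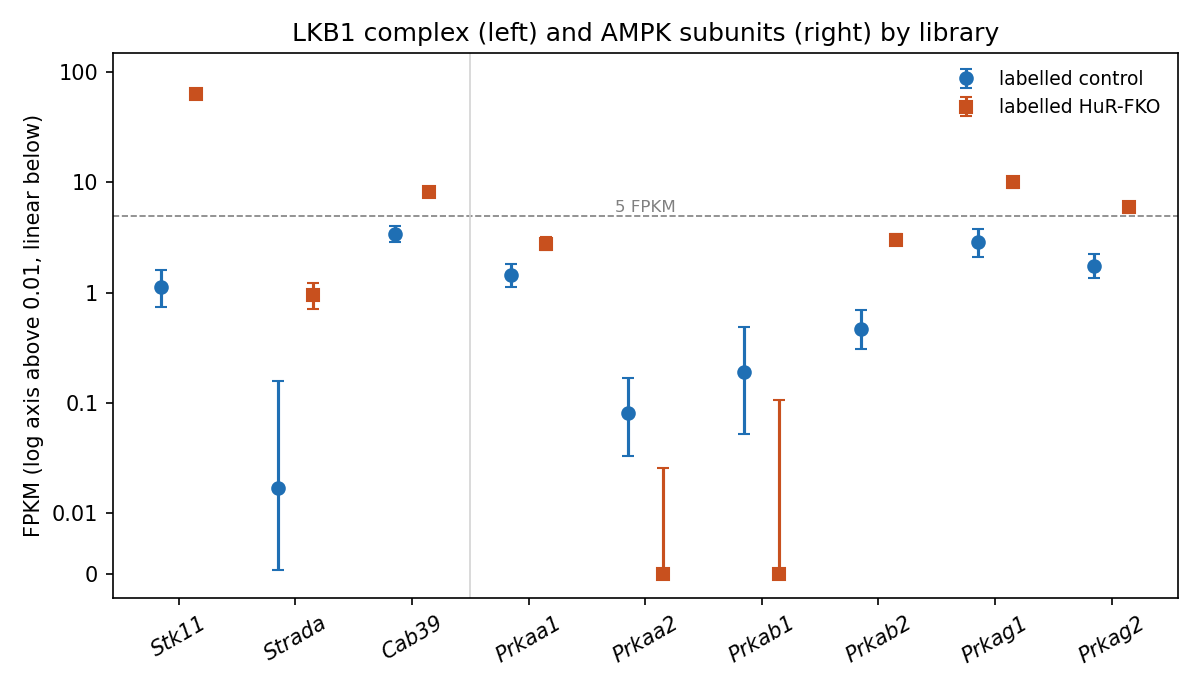
FPKM (y axis, logarithmic above 0.01 and linear below) of the 3 LKB1 complex genes and the 6 AMPK subunit genes (x axis), with 1 library per genotype. Points are deposited values and bars exact 95% Poisson intervals of the estimated fragments (counting error only); Stk11 in HuR-FKO stands above all others at 63.8 FPKM, and Prkaa2 and Prkab1 are at 0 there.

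The catalytic subunits of AMPK were low, and Prkaa1, encoding α1, exceeded Prkaa2, encoding α2, in each library. Prkaa1 (ENSMUSG00000050697, chromosome 15, 5143861 to 5181899, plus strand) was at 1.44 FPKM in control and at 2.78 FPKM in HuR-FKO, 1.93-fold higher in the latter (1.47 to 2.56). Relative to the median gene it lay 2.41-fold toward control. Its antisense neighbour Gm15938 was at 0.209 FPKM in control and at 0 in HuR-FKO. Prkaa2 (ENSMUSG00000028518, chromosome 4, 105029874 to 105109890, minus strand), the α isoform known from skeletal muscle and heart, was at 0.0814 FPKM in control and listed at 0 in HuR-FKO. It has 1 annotated transcript, and the control value corresponds to 6.99 fragments, a whole number within the precision of the estimate. If the 0 is a count, 3 fragments would allow up to 0.0208 FPKM. An exact 0 can also be a failed estimate, so no fold is given.

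Of the β genes too, 1 was listed at 0 in HuR-FKO. Prkab2 (ENSMUSG00000038205, chromosome 3, 97658193 to 97673812, plus strand), encoding the scaffold subunit β2, was at 0.47 FPKM in control and at 3.03 FPKM in HuR-FKO, or 25.0 and 270 fragments, a 6.44-fold difference (4.26 to 10.1), which is 1.38-fold toward HuR-FKO relative to the median gene. Its interval includes the median fold of 4.66. Prkab1 (ENSMUSG00000029513, chromosome 5, 116013586 to 116024508, minus strand), encoding β1, was at 0.192 FPKM in control, about 4 fragments, and listed at 0 in HuR-FKO, where 3 fragments would allow up to 0.0859 FPKM. The genes on their opposite strands, Gm17651 for Prkab2 and Gm14508 for Prkab1, were at 0 in control, and at 0 and 0.233 FPKM in HuR-FKO. Of the 14710 protein-coding genes above 0 in either library, 5.53% were listed at 0 in HuR-FKO and above 0 in control, as were Prkaa2 and Prkab1.

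The γ genes had similar ratios. Prkag1 (ENSMUSG00000067713, chromosome 15, 98812798 to 98831508, minus strand), encoding the nucleotide-binding γ1, was at 2.9 FPKM in control and at 10.1 FPKM in HuR-FKO, 3.48-fold higher in the latter (2.56 to 4.91). Prkag2 (ENSMUSG00000028944, chromosome 5, 24862744 to 25100642, minus strand), encoding γ2, was at 1.76 and 5.95 FPKM, 3.38-fold higher (2.56 to 4.50). The ratio of Prkag1 to Prkag2 was 1.65 in control and 1.69 in HuR-FKO, and each gene lay on the control side of the median of all genes, by 1.34-fold and 1.38-fold. The interval of Prkag1 includes the median fold of 4.66. That of Prkag2 includes it only with the mean length of its coding transcripts (2.28 to 5.24). In Prkag1, 28.2% of the 50-base words also occur on the opposite strand in B130046B21Rik, which was at 0 in control and at 0.376 FPKM in HuR-FKO. Opposite Prkag2, 1500035N22Rik was at 0 and 1.55 FPKM, Prkag2os2 at 0 and 0.66 FPKM, and Prkag2os1 at 0 in both.

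In order of level in control, Cab39, Prkag1, Prkag2, Prkaa1 and Stk11 came first, and each neighbouring pair had overlapping counting intervals. Prkab2 followed, its interval ending at 0.695 FPKM and that of Stk11 starting at 0.743, or at 0.636, which overlaps, with the mean in place of the longest transcript length. Prkab1, Prkaa2 and Strada came last, again with overlapping neighbours. The order in HuR-FKO was Stk11, Prkag1, Cab39, Prkag2, Prkab2, Prkaa1 and Strada, with Prkaa2 and Prkab1 at 0. There Prkab2 and Prkaa1 overlapped, as did the pair at 0 and, with the mean length only, Prkag1 and Cab39. In coding sequence, Prkaa1 and Prkaa2 were 70.5% identical with a longest shared run of 35 bases, Prkab1 and Prkab2 72.9% with 23 bases, and Prkag1 and Prkag2 69.4% with 15 bases.

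**Figure D3:**
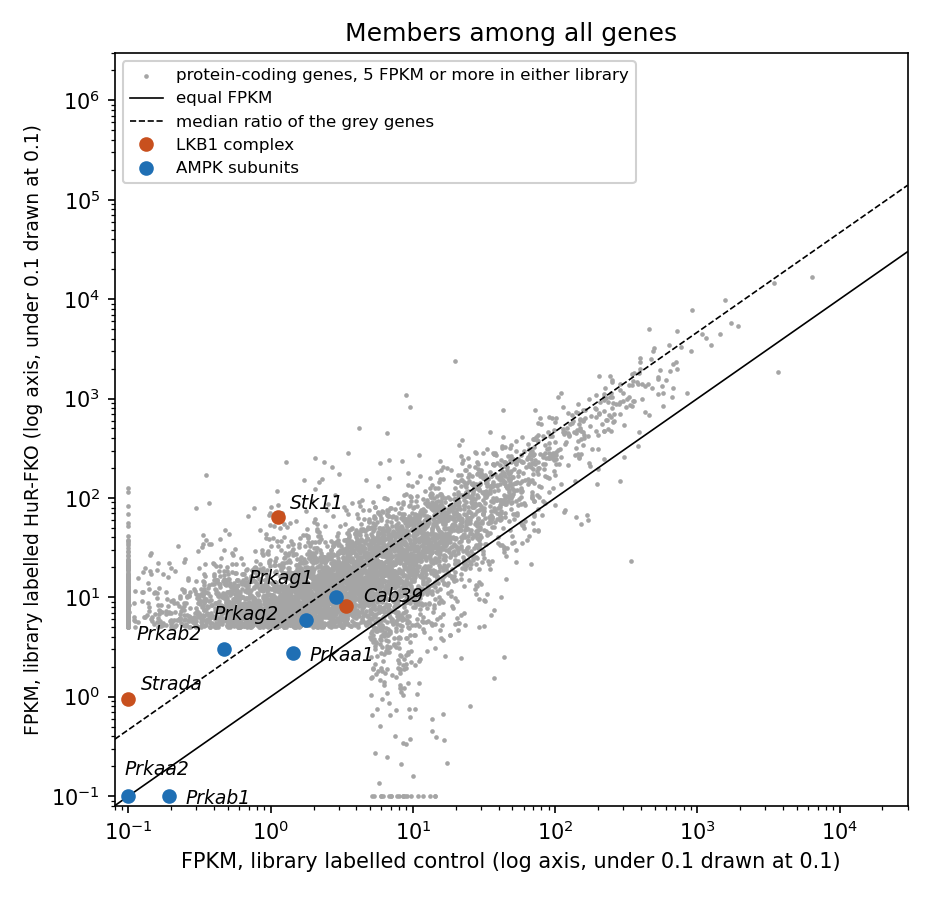
HuR-FKO FPKM (y axis, log) against control FPKM (x axis, log), 1 library each; grey points are the 5571 protein-coding genes that reached 5 FPKM, and values under 0.1 are drawn at 0.1. Stk11, Prkab2 and Strada, the last with its control value drawn at 0.1, lie above the dashed line of the median ratio (log2 -2.22). Cab39, Prkag1, Prkag2 and Prkaa1 lie between that line and the line of equal FPKM.

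Of the 9 genes, 4 reached 5 FPKM in HuR-FKO and none did in control, so those 4 (Stk11, Cab39, Prkag1 and Prkag2) entered through the library in which they are higher. All 4 were at least 2-fold higher in HuR-FKO, where 82.4% of the 5571 genes were. A single gene, Stk11, was at least 10-fold and also at least 30-fold higher, as were 23.0% and 8.53% of all genes. It was also the 1 member at least 2-fold below the median ratio (25.0% of genes), and the other 3 lay on the control side of the median. With no minimum, 7 of the 9 were higher in HuR-FKO, against 85.4% of the 14710 genes above 0 in either library. Further, 6 of the 9 were at least 2-fold higher in HuR-FKO with both values above 0, where 58.1% of the 14710 were. These shares are near the background.

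Stk11 was chosen because it stood out in these same values, so the number of genes near it is a description and not a finding of rarity. Cab39, Prkag1 and Prkag2, at 8.14, 10.1 and 5.95 FPKM in HuR-FKO, lie nearer the 5 FPKM minimum. Within a distance of 1 from Stk11 over the 2 log2 FPKM values lay 41 of the 5571 genes, against 943 for Cab39, 1093 for Prkag1 and 866 for Prkag2. The nearest 5 were Spcs1, a signal peptidase subunit gene (1.2 and 70.5 FPKM, distance 0.17), Ppp1r15a, whose product GADD34 directs a phosphatase to eIF2α (0.97 and 67.1 FPKM, 0.23), Safb (0.995 and 71 FPKM, 0.23), Mapk6 (1.24 and 54.1 FPKM, 0.27) and Sri (1.05 and 52.4 FPKM, 0.30). For Cab39 the nearest included Efnb1 and 8430410A17Rik, for Prkag1 they were Ythdc1, Vasn and Actr1a, and for Prkag2 Impa1, Gatad2a and Vrk3, each within a distance of 0.06.

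Genes around the relay were counted in 9 lists of regulators and substrates. Of 62 genes, 61 were in the table and 29 reached 5 FPKM in either library. Their median log2 ratio was -1.68, against -2.22 over all genes. At least 2-fold higher in HuR-FKO were 24 of the 29 (82.4% of all genes), and none was 2-fold higher in control (3.21%). At least 10-fold higher were 5 (Ak3, Appl2, Pnpla2, Sik2 and Tsc2), against 23.0% of all genes. Tsc2, listed at 0 in control, enters the 2-fold and 10-fold counts only because that 0 was raised to 0.1 FPKM. None of these shares is a test.

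Among upstream regulators, Camkk2, the calcium-dependent kinase that also activates AMPK, was at 3.26 and 11.4 FPKM (3.49-fold higher in HuR-FKO), close to the γ genes. Camkk1 was listed at 0 in both libraries. Cab39l, the paralogue of Cab39, was at 3.28 and 7.41 FPKM, 2.26-fold higher, much like Cab39. Stradb was listed at 0 in control and at 1.26 FPKM in HuR-FKO. Of the 12 AMPK-related kinases that LKB1 also activates, 4 reached 5 FPKM, and Sik2, a salt-inducible kinase abundant in adipose tissue, stood apart. It was at 2.84 FPKM in control and at 106 FPKM in HuR-FKO, 37.1-fold higher (31.9 to 43.7), and it overlaps Ppp2r1b (2.66 and 16.2 FPKM). Snrk was 4.13-fold, Mark3 3.33-fold and Sik1 2.29-fold higher, all nearer to control than the median gene.

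Substrates of AMPK in lipid metabolism lay on both sides of the median. The lipase genes were higher in HuR-FKO, Pnpla2 at 21.8 and 267 FPKM (12.3-fold) and Lipe at 29.4 and 168 FPKM (5.74-fold), each on the HuR-FKO side of the median. Acaca, the fatty acid synthesis enzyme that AMPK inhibits, was at 4.13 and 12.4 FPKM, 3.01-fold higher and on the control side of the median. Mlxipl, encoding the glucose-responsive factor ChREBP, had the higher value in control, 5.04 against 2.53 FPKM. Among growth, autophagy and glucose genes, Txnip was at 357 and 939 FPKM (2.63-fold), Becn1 2.72-fold and Pfkfb3 1.77-fold higher in HuR-FKO. Tsc2, a brake on mTORC1, was listed at 0 in control and at 5.11 FPKM in HuR-FKO. The mitochondrial and transcriptional substrates Mff, Hdac5 and Mtfr1l were 4.78-fold, 3.75-fold and 3.19-fold higher, near the median gene (4.66-fold).

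Of 9 folliculin complex, phosphatase and scaffold genes, 3 reached 5 FPKM. Ppm1b was 2.54-fold, Ppp2ca 2.43-fold and Lamtor1, part of the lysosomal anchor for LKB1 and AMPK, 1.33-fold higher in HuR-FKO, and all 3 lay on the control side of the median. The adenylate kinases, which set the AMP that AMPK senses, were split. Ak1, the cytosolic enzyme, was at 10.4 FPKM in control and at 5.26 FPKM in HuR-FKO, while the mitochondrial Ak3, at 1.53 and 19.2 FPKM, was 12.6-fold higher in HuR-FKO. In adiponectin signalling, which acts on AMPK, Appl2 was at 2.04 and 122 FPKM, 59.8-fold higher (46.5 to 77.3), whereas its paralogue Appl1 was 4.13-fold higher at 2.4 and 9.9 FPKM. Adipoq was 4.14-fold and Adipor2 2.67-fold higher.

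**Figure D4:**
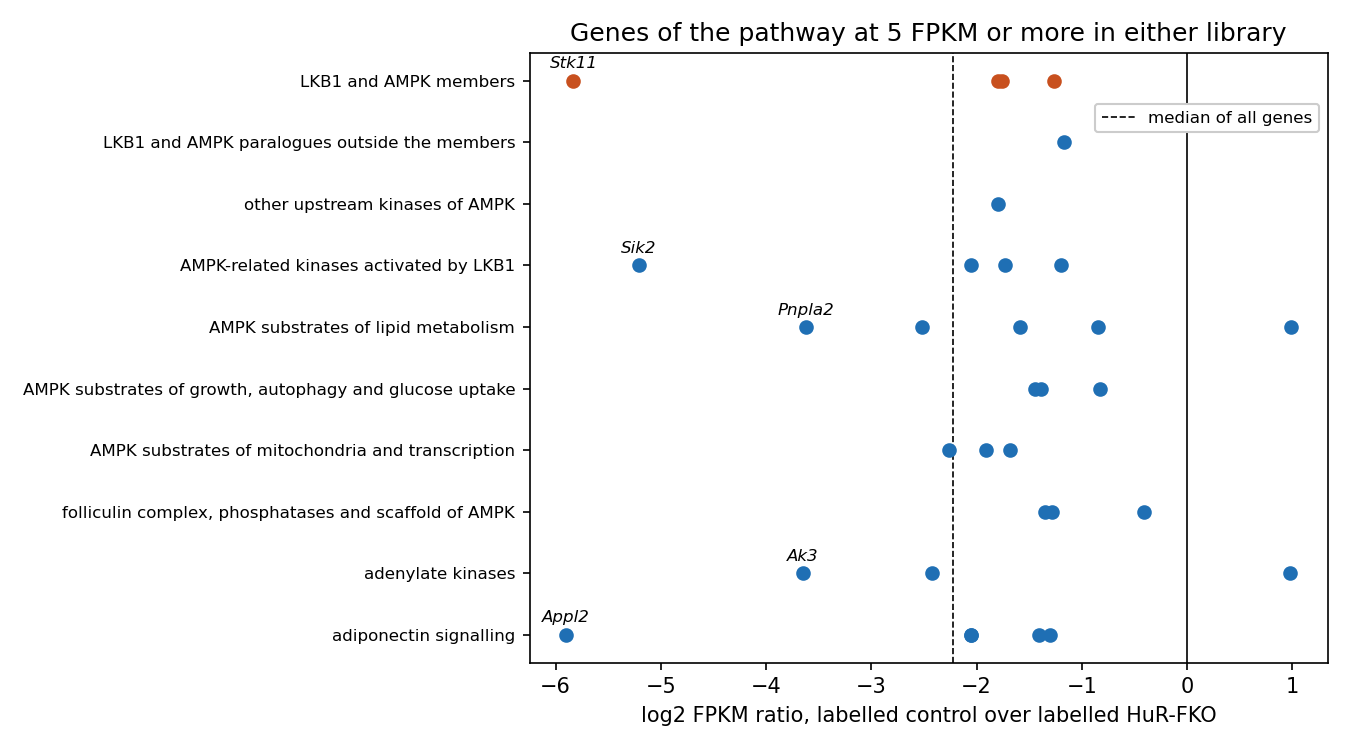
Log2 of control FPKM over HuR-FKO FPKM (x axis) for the genes of each list (y axis) that reached 5 FPKM, 1 library per genotype; the solid line is equal FPKM and the dashed line the median of all genes (-2.22), and Tsc2, listed at 0 in control, is not drawn. Stk11, Sik2 and Appl2 lie beyond -5, and Mlxipl and Ak1 lie to the right of 0.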

How the data were processed

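RNA immunoprecipitated with an anti-HuR antibody was sequenced from 1 control and 1 HuR-FKO library. The authors deposited FPKM values per gene. The submitters' processing notes name TopHat2 2.0.11, Cufflinks 2.1.1 and mm10; for the immunoprecipitated RNA, the annotation and the treatment of duplicates and strand were not given in the sources used here. Biotypes, transcripts and UTRs came from GENCODE M21 (GRCm38, the same build), where 36489 of 38396 rows matched by gene identifier. Gene starts, deposited counting from 0, are printed counting from 1.

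For log2 ratios a floor of 0.1 FPKM was applied, and protein-coding genes reaching 5 FPKM in at least 1 library were kept, as in the study's target tables. With 1 library per genotype no test was run. A scan over fragment length and step size returned 200 and 210 bases; 36.9% and 27.7% of values from 0.5 to 10.5 fragments were whole within 0.05, against 10% by chance, so fragments are estimates. Genes of similar 3′ UTR length have 0.8 to 1.25 times that length. Intervals at the mean transcript length were added after the values were seen. Fold intervals are exact binomial and level intervals exact Poisson, at 95%. Python 3.11.15, scipy 1.17.1 and biopython 1.88 were used.

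The members, lists and motifs were chosen with earlier results of these data known. Named are all members, their nearest genes, every annotated gene overlapping a member, and from each list at most 4 genes, those farthest from a log2 ratio of 0 that had 0.1 FPKM in both libraries and 5 FPKM in 1. Alternatives were other pseudocounts, minimums, scalings and all genes as background. Camkk1, Stradb and Tsc2 fall outside this rule and were named after their values were seen. Of the 26 list genes this rule takes, 11 overlap another gene in the table. Some genes the rule takes are not reported here.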

Additional observations from a re-analysis of the deposited data

How the results depend on the processing

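The direction of most members depends on the scaling, which adds a constant to every log2 ratio of control over HuR-FKO: 2.09 when medians were centred, 1.98 when upper quartiles were matched and 1.77 when the summed FPKM of protein-coding genes of 300 bases or more was made equal. These turned Cab39 to 0.84, 0.72 and 0.51, Prkaa1 to 1.14, 1.03 and 0.82, and Prkag2 to 0.34, 0.22 and 0.01, toward control. Prkag1 turned to 0.30 and 0.18 and came to -0.03 with the third. Stk11 stayed toward HuR-FKO, at -3.73, -3.85 and -4.06. Strada stayed at -3.26 because its control value remained under the 0.1 floor, and with a pseudocount of 1 it was -0.94 and Stk11 -4.93. The count of members at least 2-fold higher in HuR-FKO fell from 4 to 1 under each of the 3 scalings, and to 1 of 1 member left at a minimum of 20 FPKM. The members' median minus that of all genes was 0.44; it was 0.45 with a pseudocount of 0.1 and with all genes as the background, 0.48 with a pseudocount of 1, 0.56 over 6 members at 1 FPKM, 0.16 over 9 with no minimum, and -3.74 at 20 FPKM, where only Stk11 is left. The members at least 2-fold below the median ratio numbered 1 (Stk11), and 2 with no minimum. The added member is Strada, whose control value of under 1 fragment was raised to the 0.1 floor. No replicate could be left out, and no paired analysis was possible because each genotype has 1 library. Depth limits Strada, Prkaa2 and Prkab1, with under 8 estimated fragments in control.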

Other observations

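Below 5 FPKM, 3 list genes were picked out after their values were seen. Most other list genes below 5 FPKM had the higher value in HuR-FKO, Fnip2 by 16.5-fold, while Ppm1a was 1.06-fold higher in control. Ppargc1a, encoding the coactivator PGC-1α of mitochondrial biogenesis, had 1.29 FPKM under the control label and 0.236 FPKM under the HuR-FKO label, 5.45-fold higher in control (89 and 27.4 fragments). Nuak1, an AMPK-related kinase, was at 1.47 and 0.515 FPKM, 2.85-fold higher in control (86.9 and 51.2 fragments). Prkag3, the γ subunit gene known from skeletal muscle, was at 0.088 FPKM in control (2.56 fragments) and at 3.27 FPKM in HuR-FKO (159 fragments). The skeletal muscle markers Ckm and Mylpf were listed at 0 in both libraries and Myh4 at 0.0712 FPKM in control and 0 in HuR-FKO; their part in this value was not tested.

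Low values also fell on fractions of the step taken as 1 fragment. Within 0.5% of it lay 87 genes in control and 57 in HuR-FKO, and at 1/2, 1/3, 1/4, 1/5, 1/10 and 1/20 of it 21, 8, 8, 10, 11 and 7 genes in control and 21, 13, 9, 5, 12 and 3 genes in HuR-FKO.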
